A study of Mus musculus with 9 samples.

Results

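The genes described here are those that the authors' deposited table of significant changes defines with the word kinase, apart from the kinases and partners of the mitotic core. Kinases move phosphate from ATP onto a protein, a nucleotide, a lipid or another small molecule, and in dividing myeloid precursors the cyclin-dependent kinases drive the passage through the cell cycle, while checkpoint kinases and inhibitors hold it back. In mature neutrophils and monocytes other kinases work downstream of chemokine, cytokine and stress receptors. Of 964 rows in the authors' table, 34 have the word in their definition. Leaving out the rows of Aurka, Aurkb, Plk1, Plk4, Ttk and Pbk gave 27 rows, each a different gene, out of 31648 rows on the arrays. The authors chose every one of these rows for its difference between the same 9 samples, at a p threshold of 0.001 and at least a 2-fold change, so the differences below describe the genes and are not tested.

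The samples are CD11b+Gr1+ cells sorted from mouse spleen, a surface phenotype of neutrophils, monocytes and their precursors. There were 6 samples from tumour-bearing L2-Cre;p120f/f mice, each 1 animal, and 3 control pools, each of cells from 3 healthy L2-Cre;p120+/f animals. Both groups carry L2-Cre, a driver of squamous epithelium in the upper digestive tract, and both carry the floxed allele of p120, the catenin encoded by Ctnnd1, on both chromosomes in the tumour-bearing mice and on 1 in the controls. The strain field gives a mixed C57BL/6x129 background for all samples. The age, genotype and description fields name an embryonic age, Shh mutants and forelimb tissue, which contradict the titles and the tissue field (spleen). They were not used, so the animals' age is not known here. Tumour, genotype and pooling coincide and cannot be told apart. The marker genes of the sort, Itgam, Ly6g and Ly6c1, have no named row and were not analysed here.

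Values are log2 expression as the authors normalized them across arrays, and each difference is the mean of the mice minus the mean of the pools, with the standard error (SE) of limma's fit to all rows. Array medians lay between 5.92 and 5.99. Correlations between arrays over all rows were at least 0.985 within a group and at most 0.974 across groups. Exact repeats of a value in 2 or more arrays occurred in 45.5% of all rows and in 6 of the 27 genes, for example in mice 5 and 6 for Chek1. The number of arrays limits the precision.

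Of the 27 genes, 17 had a higher mean in the mice with tumours and 10 a lower one, which is 63.0% higher against 53.2% of the authors' 964 rows. The median difference was 1.39 for the higher genes and -1.17 for the lower genes, beside 1.40 and -1.40 for all higher and all lower rows of the authors' table. All 27 passed limma at an adjusted p under 0.05, as did 23.2% of all rows on the arrays. In all 27 the 6 mice lay on the same side of the 3 pools, a separation found in 24.8% of all rows. Because the authors selected the genes on this contrast, nothing is read from these 2 counts. The word also takes in genes that are not kinases. Enzymes with kinase activity made up 19 of the 27 (13 higher and 6 lower). The other 8 (4 higher and 4 lower) are inhibitors, MOB family proteins, substrates, a regulatory subunit and a pseudokinase.

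**Figure D1:**
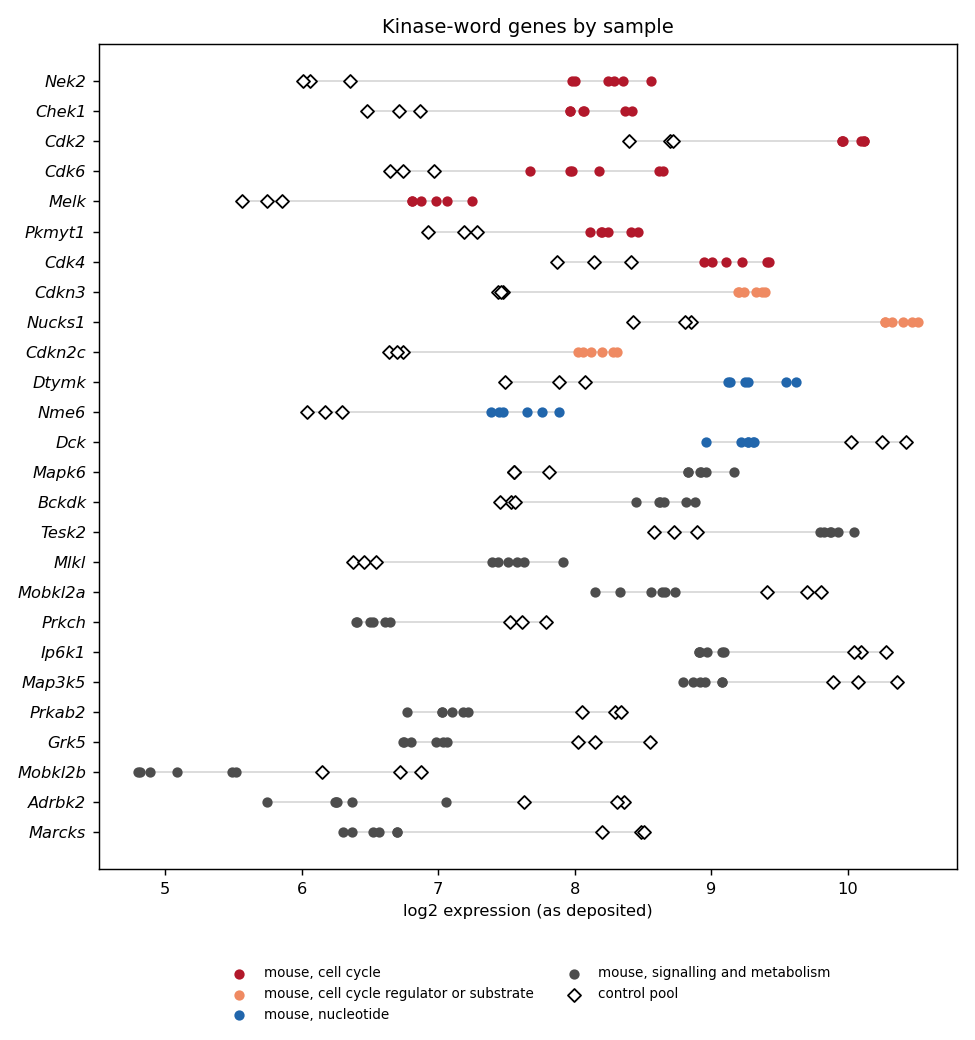
Log2 expression of 26 of the 27 genes in each sample, with filled circles for the 6 tumour-bearing mice (coloured by role) and open diamonds for the 3 control pools, each of 3 animals. All 7 cell cycle kinases and all 3 of their regulators or substrates lie to the right of the pools, and 9 of the 13 signalling and metabolism genes lie to the left.

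Nek2 is the gene with the largest difference and Cdkn3 the inhibitor with the largest difference. Cdk2 is the only gene with an exact match to an E2F motif as spelled below, and Dck the nucleotide kinase gene that was lower. For this reason the sequences of their 4 promoters are shown. They come from RefSeq's GRCm38.p6, run 5′ to 3′ on the gene's strand from 250 bases before the annotated start to 50 after it, and have capitals at each match to an E2F motif (TTTGGCGC or TTTCCCGC), a cell cycle homology region (CHR, TTTGAA) or a CCAAT box (CCAAT), on either strand.
Nek2, chr1:191821223-191821522, plus strand: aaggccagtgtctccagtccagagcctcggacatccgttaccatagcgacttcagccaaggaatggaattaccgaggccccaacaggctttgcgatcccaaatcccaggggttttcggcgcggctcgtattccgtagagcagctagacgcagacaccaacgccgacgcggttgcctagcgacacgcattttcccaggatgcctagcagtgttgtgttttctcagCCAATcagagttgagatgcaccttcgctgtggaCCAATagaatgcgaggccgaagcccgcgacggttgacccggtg
Cdkn3, chr14:46760291-46760590, plus strand: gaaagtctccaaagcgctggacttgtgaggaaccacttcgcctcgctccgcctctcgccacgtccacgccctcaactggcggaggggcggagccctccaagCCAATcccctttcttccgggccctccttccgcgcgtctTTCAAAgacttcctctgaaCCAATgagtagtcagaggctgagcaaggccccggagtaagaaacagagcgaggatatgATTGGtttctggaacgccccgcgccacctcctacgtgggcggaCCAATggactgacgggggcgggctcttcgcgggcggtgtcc
Cdk2, chr10:128705002-128705301, minus strand: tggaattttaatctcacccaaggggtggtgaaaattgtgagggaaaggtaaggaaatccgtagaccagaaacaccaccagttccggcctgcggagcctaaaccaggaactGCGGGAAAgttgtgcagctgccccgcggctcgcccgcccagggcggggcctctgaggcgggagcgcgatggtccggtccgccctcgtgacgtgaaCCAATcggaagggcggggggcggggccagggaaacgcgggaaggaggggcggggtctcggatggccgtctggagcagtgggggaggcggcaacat
Dck, chr5:88764763-88765062, plus strand: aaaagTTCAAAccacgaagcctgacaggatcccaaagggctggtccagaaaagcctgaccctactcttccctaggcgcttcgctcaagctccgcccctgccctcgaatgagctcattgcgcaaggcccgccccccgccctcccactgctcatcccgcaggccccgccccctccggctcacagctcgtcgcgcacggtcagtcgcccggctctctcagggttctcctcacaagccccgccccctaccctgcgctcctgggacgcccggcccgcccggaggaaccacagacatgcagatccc
The Nek2 window has CCAAT boxes starting 26 bases before and 7 bases after the start. The Cdkn3 window has 4 CCAAT boxes and a CHR match 111 bases before the start. In Cdk2 the E2F match begins 140 bases before the start and a CCAAT box 45 bases before it. Dck has a CHR match 245 bases before its start and no CCAAT box in this window. Of the 27 genes, 22 have a promoter in the table. A CCAAT box was present in 9 of the 15 higher genes with a promoter (60%) and 3 of the 7 lower ones (42.9%), against 41.1% of 27025 genes. CHR matches were present in 3 of the 15 (20%) and 1 of the 7 (14.3%), against 20.2% of all genes. E2F matches were present in 1 of the 15 and 0 of the 7, against 1.8% of all genes. GC boxes (GGGCGG) were present in 8 of the 15 (53.3%) and 5 of the 7 (71.4%), against 38.2%. These are matches of letters in a window and were not tested. Only exact copies of the motifs were sought, so variant sites, E2F sites among them, were not counted.

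The 7 kinases of the cell cycle and its checkpoints were all higher in the tumour-bearing mice. Nek2, a kinase of centrosome separation, ranked 60th by size among the 513 higher rows of the authors' table. It measured 6.06, 6.01 and 6.35 in the pools and 7.98 to 8.56 (median 8.26) in the mice. The difference was 2.10 ± 0.14 (SE), or 4.27-fold, and 1.63 log2 units separated the lowest mouse from the highest pool. Melk, an AMPK-related kinase of progenitor cells, went from 5.72 ± 0.15 (SD, n = 3) to 6.96 ± 0.17 (SD, n = 6), and its control mean lay below every array median.

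Cdk4 and Cdk6 pair with D-type cyclins to phosphorylate the retinoblastoma protein, and Cdk2 pairs with cyclins E and A for DNA synthesis. The row of Cdk2 read 8.70, 8.40 and 8.72 in the pools and 9.96 to 10.12 (median 10.03) in the mice, a difference of 1.43 ± 0.08 (SE). Its spread among mice (0.08 SD) was the smallest of all 27 genes. Cdk6 read 6.97, 6.64 and 6.74 in the pools and 7.67 to 8.65 (median 8.08) in the mice, a difference of 1.39 ± 0.22 (SE). Its mice fell apart more than those of Cdk2, with mice 1 and 2 at 8.65 and 8.62 and the other 4 at or below 8.18. Cdk4 had the smallest difference of the higher genes, 1.04 ± 0.15 (SE), with pools at 8.41, 7.87 and 8.14 and mice from 8.94 to 9.42 (median 9.16). Its groups also came closest to each other among the higher genes, at a gap of 0.53.

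Kinases that restrain the cycle were higher alongside those that drive it. Chek1, which stalls the cycle when replication forks stop, read 6.87, 6.48 and 6.71 in the pools and 7.97 to 8.42 (median 8.06) in the mice, a difference of 1.45 ± 0.13 (SE). Mice 1 and 2 again stood above the other 4, which lay at or below 8.06. Pkmyt1, a membrane-bound kinase that places inhibitory phosphates on Cdk1, was 2.20-fold higher, 8.27 ± 0.14 (SD, n = 6) in the mice and 7.13 ± 0.19 (SD, n = 3) in the pools.

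The 3 genes that regulate these kinases or serve as their substrates were higher too. Cdkn3, a phosphatase that takes the activating phosphate off cyclin-dependent kinases, had pools at 7.47, 7.44 and 7.46 and mice at 9.19 to 9.39 (median 9.28). With 1.83 ± 0.05 (SE) it had the second largest difference of the 17 higher genes and, at 1.72, the widest gap between the groups of all 27. Cdkn2c, an INK4 protein that binds and inhibits Cdk4 and Cdk6, had pools at 6.74, 6.64 and 6.70 and mice at 8.02 to 8.31 (median 8.16), a difference of 1.47 ± 0.07 (SE). Cdk4, Cdk6 and their inhibitor Cdkn2c were all higher in the same mice. Nucks1, a chromatin-associated substrate of casein and cyclin-dependent kinases, was 3.21-fold higher, at 10.38 ± 0.10 (SD, n = 6) against 8.69 ± 0.24 (SD, n = 3).

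Nucleotide kinase genes went both ways. Dtymk turns dTMP into dTDP, a step shared by new synthesis and salvage of thymidine nucleotides. Its pools read 8.07, 7.49 and 7.88 and its mice 9.12 to 9.62 (median 9.25), a difference of 1.51 ± 0.16 (SE). Dck, which phosphorylates salvaged deoxycytidine, went the other way, with pools at 10.25, 10.42 and 10.02 and mice at 8.96 to 9.31 (median 9.27). Its difference of -1.01 ± 0.10 (SE) was the smallest in size of all 27 genes. Nme6, of the nucleoside diphosphate kinase family, had pools at 6.30, 6.17 and 6.04, mice at 7.38 to 7.88 (median 7.56), and a difference of 1.43 ± 0.12 (SE).

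Signalling and metabolic genes were split, 4 higher and 9 lower. The higher ones differed by 1.12 to 1.30. Mapk6, an atypical MAP kinase, had pools at 7.81, 7.55 and 7.56 and mice at 8.83 to 9.16 (median 8.92), a difference of 1.30 ± 0.09 (SE). For Bckdk, the kinase that inactivates the branched-chain ketoacid dehydrogenase, pools lay at 7.54, 7.45 and 7.56 and mice at 8.45 to 8.88 (median 8.64), 2.23-fold higher. Mlkl, the pseudokinase that ruptures the membrane in necroptosis, measured 6.38, 6.46 and 6.54 in the pools and 7.39 to 7.91 (median 7.54) in the mice, a difference of 1.12 ± 0.11 (SE). Tesk2, a kinase of the actin regulator cofilin, was 2.23-fold higher, at 9.89 ± 0.09 (SD, n = 6) against 8.73 ± 0.16 (SD, n = 3).

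Both kinases in the set that phosphorylate activated G protein-coupled receptors and so switch off their signalling were lower. Adrbk2 (now Grk3) had pools at 8.36, 7.63 and 8.31 and mice at 5.75 to 7.06 (median 6.25). It had the widest spread of all 27 genes among the mice, with mouse 4 lowest and mouse 2 highest, and its difference was -1.78 ± 0.27 (SE). Grk5 had pools at 8.55, 8.02 and 8.15 and mice at 6.74 to 7.06 (median 6.89), a difference of -1.35 ± 0.13 (SE).

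Protein kinase C was represented by an isoform and a substrate, and both were lower. Prkch, the eta isoform, had pools at 7.79, 7.53 and 7.61 and mice at 6.40 to 6.65 (median 6.51), 2.19-fold lower. Marcks, a membrane protein that binds actin and is a major substrate of these enzymes, had the difference of largest size among the 10 (-1.87 ± 0.11 SE). Its pools lay at 8.49, 8.51 and 8.20 and its mice at 6.30 to 6.70 (median 6.54).

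The remaining lower genes work in stress and energy signalling or belong to the MOB family. Map3k5 (ASK1), which relays oxidative stress to the JNK and p38 cascades, had pools at 10.07, 10.36 and 9.89 and mice at 8.79 to 9.07 (median 8.94), a difference of -1.16 ± 0.11 (SE). Ip6k1, which makes inositol pyrophosphates, had pools at 10.09, 10.28 and 10.04 and mice at 8.91 to 9.09 (median 8.94), 2.23-fold lower. Prkab2, a non-catalytic subunit of the energy sensor AMPK, had pools at 8.29, 8.05 and 8.34 and mice at 6.77 to 7.22 (median 7.06), 2.25-fold lower. The MOB family genes Mobkl2a (now Mob3a) and Mobkl2b (now Mob3b) differed by -1.12 ± 0.15 (SE) and -1.48 ± 0.22 (SE). Mobkl2a had pools at 9.70, 9.80 and 9.41 and mice at 8.15 to 8.74 (median 8.60). The mice's mean for Mobkl2b, 5.10 ± 0.33 (SD, n = 6), lay below every array median, so the size of its difference is uncertain. The rows of Mobkl2a, Mobkl2b and Cdkn3 carry the accession of a cDNA clone rather than a RefSeq transcript.

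Dck at -1.01 and Cdk4 at 1.04 stand just inside the 2-fold threshold, which is a difference of 1 in size. Rows just outside it, the nearest at 0.9994 and -0.9997 among those that met the p threshold by the methods' test, carry no gene name, so kinases there were not analysed here. The definitions in the table also miss kinases. Of 489 kinase genes on 9 lists by family, 31 have a named row. Of these, 20 are among the 27 genes, Cdc2a (now Cdk1) was set aside with the mitotic core, and 10 lack the word in the definition, which for Camk1d ends after "calcium". Among these 10, 5 of cell division were higher, namely Mastl, which blocks the phosphatase PP2A in mitosis (difference 2.08), Cit of cytokinesis (1.67), Wee1, an inhibitor of Cdk1 (1.48), the checkpoint kinase gene Chek2 (1.41) and the histone kinase gene Gsg2 (1.12). The other 5 were lower: the receptor genes Csf1r (-1.95) and Tgfbr2 (-1.10), the Src-family gene Fgr (-1.54), Camk1d (-1.60) and the nucleoside diphosphate kinase gene Nme2 (-1.09). With them and Cdc2a, 13 of 46 genes on the list of cell cycle and DNA damage kinases have a named row and all 13 were higher. A list of 47 genes meant for kinase regulators and partners has 4 further named genes, all higher by 1.72 to 2.16. The largest of these differences was that of 5730590G19Rik (now Ticrr). Dbf4, the activating subunit of the replication kinase Cdc7, differed by 1.85. Ckap2 (2.04) and Ckap5 (1.72) are defined as cytoskeleton associated proteins and not as kinase regulators. The mitotic rows set aside, 10 rows of 9 genes, were all higher by 1.65 to 2.94, and 16 of the 17 higher genes described here lay below the median of those 9 genes, 2.01. Nek2 was the exception. The control means of Mastl, Dbf4 and the Plk4 row at 2.94 lay below every array median, so the sizes of these differences are uncertain.

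**Figure D2:**
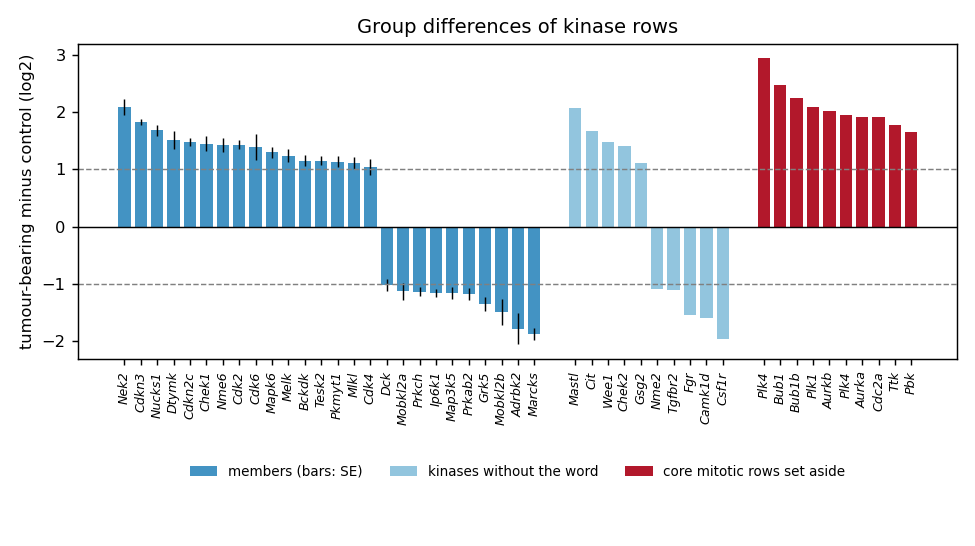
Difference between tumour-bearing mice and control pools (log2, 6 mice minus 3 pools) for 26 of the 27 genes (dark blue, error bars are SE), for the 10 named kinases whose definition lacks the word (light blue) and for the 10 core mitotic rows set aside (red), the last 2 without error bars. Dashed lines mark the authors' 2-fold threshold, and red bars lie between 1.65 and 2.94.

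The mice themselves differed too. Their order within the group was not a criterion of the selection. The values of mice and pools did enter the selection, so shares in selected rows and in all rows are not on equal terms. Mouse 1 was the highest of the 6 in 12 of the 17 higher genes (70.6%), and mouse 6 was lowest, alone or tied, in 14 of the 17 (82.4%). Over all rows on the arrays these shares were 18.3% for mouse 1 and 20.9% for mouse 6. The set-aside mitotic rows had mouse 1 highest in 6 of 10 and mouse 6 lowest, alone or tied, in 10 of 10. The authors' other 486 higher rows leaned the same way, with mouse 1 highest in 65.8% and mouse 6 lowest, alone or tied, in 62.8%, so this order was not found in the kinase genes alone. In the median higher gene mouse 1 stood 0.22 above the mean of the 6 mice and mouse 6 stood at -0.16. After quantile normalization mouse 1 was highest in 11 of the 17 and mouse 6 lowest, alone or tied, in 11. With that scaling these shares were 59.9% and 55.8% in the authors' other higher rows, and 20.8% and 13.5% over all rows. These shares were not tested.

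Among the pools, pool 2 was lowest in 15 of the 17 higher genes (88.2%) and in 9 of the 10 set-aside mitotic rows. The share was 76.3% in the authors' other higher rows and 33.9% over all rows. After quantile normalization pool 2 was lowest in 12 of the 17 (70.6%). With that scaling its share was 72.6% in the authors' other higher rows and 33.1% over all rows. In the values as deposited, pool 2 was highest in 6 and lowest in 4 of the 10 lower genes. In the authors' other lower rows it was highest in 47.2% and lowest in 27.9%, and over all rows in 27.3% and 33.9%. Pool 3 was lowest in the other 6 (60%), against 48.8% of the authors' other lower rows and 27.6% of all rows. Among the mice, mouse 1 was lowest in 5 of the 10 lower genes, against 28.6% of the authors' other lower rows and 18.5% of all rows. Mouse 5 was highest in 3 of the 10, against 37.9% and 14.1%. The median SD of the 27 genes was 0.15 among the mice and 0.18 among the pools, beside 0.11 and 0.10 over all rows.

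**Figure D3:**
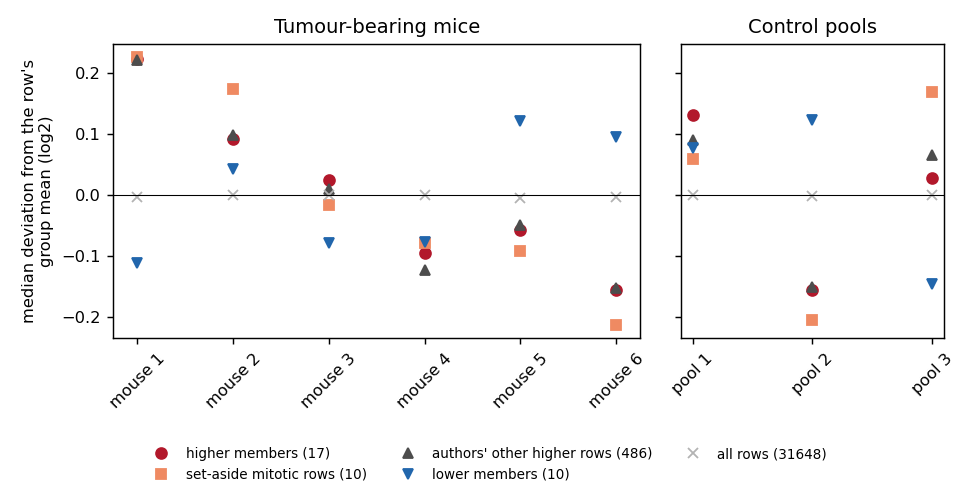
Median deviation of each sample from its own group's mean (log2), for the 17 higher genes, the 10 set-aside mitotic rows, the authors' other 486 higher rows, the 10 lower genes and all 31648 rows, in the 6 mice (left) and the 3 pools (right). In the higher genes mouse 1 stands at 0.22, mouse 6 at -0.16 and pool 2 at -0.16, while all rows stay within 0.01 of 0.

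Markers of other cell states moved with the same contrast. Of 10 neutrophil precursor markers 7 have a named row and all 7 were higher, with a mean level of 11.28 to 11.87 in the mice and 8.16 to 8.72 in the pools. Of 14 mature neutrophil markers 6 are named and all were lower (8.41 to 9.21 in the mice, 11.14 to 11.36 in the pools). Among them Ptgs2, Cd101 and Il1b differed most. Of 15 monocyte, macrophage and dendritic cell markers 11 are named and all were lower (7.51 to 8.11 against 9.997 to 10.20). Of 21 mitosis and replication genes 18 are named, and all were higher (9.07 to 9.55 against 6.97 to 7.38). Of 16 markers of B, T, natural killer and erythroid cells only Tfrc, which was higher, and Cd22, which was lower, are named. Only the 964 rows in the authors' table of significant changes, out of 31648 on the arrays, carry a gene name. The direction of the other listed markers is therefore not known here. The named markers were themselves selected by the authors on these samples, and their part in the kinase differences was not tested. In sorted bulk samples a change in the share of a cell type and a change in RNA per cell cannot be told apart.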

How the data were processed

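RNA of sorted CD11b+Gr1+ spleen cells was amplified and hybridised to Affymetrix expression arrays, per the labels' protocols. The deposited values are log2 expression, normalized across arrays by the authors. Tools listed in the submitters' processing notes are Affymetrix Power Tools, PLIER and RMA, with the build mm9. The method behind the final values is not stated there. The difference column of the authors' table, though headed as a ratio, equals the difference of group mean log2 values.

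All 964 rows of that table were found once each in the value table by identity of their 9 values, rounded to 5 decimals. Group membership came from sample titles. Functions lmFit and eBayes of limma 3.58.1 (R 4.3.3) were run on all 31648 rows, with Benjamini-Hochberg adjustment and a threshold of 0.05, and tested on simulated data. Symbols were updated through RefSeq GRCm38.p6 (24 genes by accession, 1 by symbol, 2 by synonym), which is not the authors' build. Genes on the lists were matched by current symbol, and 7 listed names that matched none were dropped. Promoter sequences are RefSeq's. The genes, the role lists and the motifs were chosen with earlier results of these data known. By the naming rule, up to 4 genes per role list have values for every pool and a range for the mice, as do those nearest the threshold, and the remaining genes are given more briefly. Marcks, whose values are also given, is on no list and was chosen after its values were seen. From each list up to 3 other genes are named. Chek2, Gsg2, Wee1 and Ckap5, beyond that number, were also named after their values were seen. Alternatives were other scalings, a dim-row filter, a pseudocount of 16, other variance models, a replicate block and leaving out each sample. One gene of the set is not reported here by name or value, though it stays in the counts and medians.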

Additional observations from a re-analysis of the deposited data

Results flagged for a closer look

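Dck, the deoxycytidine kinase gene, had 1 mouse apart from the others. Mouse 3 stood at 8.96, while the other 5 mice lay between 9.22 and 9.31, so that the gap took up 0.736 of the group's range, more than Dixon's test allows. All 6 mice were below the 3 pools. The same test on all 27 genes found only this gene, and about 1.35 are expected by chance.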

How the results depend on the processing

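The count of rows passing limma, 7333 of 31648, fell to 4289 with the replicate block, which compares 3 mice with 3 pools, and to 3800 with a Welch test (the cause was not tested). Mice and pools of the same number were not treated as pairs, since their deviations correlated at 0.09, 0.01 and 0.02. With the block the median difference of the kinase genes was 1.51 for the higher and -1.25 for the lower. The other alternatives that kept all rows gave 6606 to 7584 rows, and leaving out 1 sample gave 6201 to 7113. The dim-row filter gave 7235, but it tested only rows whose mean was at or above the median row mean. Its count is therefore not comparable with the others. Leaving out 1 sample gave medians of 1.30 to 1.48 for the higher genes and -1.25 to -1.16 for the lower, and a median SD among mice of 0.13 to 0.16. Of 351 differences of single genes under alternatives, 345 moved by less than the SD between samples, 6 moved by more and 0 reversed. Of these 6, 5 came from the pseudocount of 16 (Nek2, Cdkn3, Cdkn2c, Melk and Prkch) and 1 from the block (Cdkn3, 1.91). A pseudocount shrinks differences by construction, most at low values. The dim-row filter removed Mobkl2b alone. Averaging the rows of a gene was not run, because each of the 27 genes has 1 row in the set. Without a background call, a dim row cannot be told from an undetected one.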
